A study of Mus musculus with 2 samples.

Results

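Chemokine ligands and their receptors were examined in ovarian RNA of prenatally androgenized (PNA) and control mice, as 50 of the 20752 genes that the array measures with a probe set of a single gene symbol. The rule for members uses the gene symbol and takes in genes named Ccl, Cxcl, Ccr or Cxcr with a number, together with Xcl1, Xcr1, Cx3cl1, Cx3cr1, Ccrl2 and the atypical receptors. It gave 30 ligands and 20 receptors. PNA mice were daughters of ICR dams injected subcutaneously each day from gestation day 16 to 18 with 350 µg of dihydrotestosterone (DHT), an androgen that cannot be aromatised to estrogen, in 70 µl of sesame oil. Control mice were daughters of ICR dams given the oil alone. In both groups the dams were bought at 6 weeks of age and the ICR sires at 10 weeks. Whole ovaries were measured on the Affymetrix Mouse Genome 430 2.0 array, with 5 ovaries in each group and 1 array per group. The labels place the removal of ovaries at diestrus. Neither the age of the mice at sampling nor the way in which RNA of the 5 ovaries was combined could be found in the labels or the study's methods. With 1 array per group there is no spread between replicates, so no p-value, standard deviation or standard error can be given, and every difference below is a difference between these 2 arrays.

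Chemokines are small secreted proteins that guide leukocytes along a concentration gradient by binding receptors coupled to G proteins. CC ligands such as Ccl2 and Ccl5 mainly draw monocytes, macrophages and T cells, the CXC ligands that bind Cxcr2 draw neutrophils, and Cxcl9, Cxcl10 and Cxcl11 are induced by interferon and draw activated T cells and NK cells through Cxcr3. In the ovary, leukocytes move in around ovulation and during regression of the corpus luteum, and Cxcl12 with its receptor Cxcr4 also acts on germ cells and follicles. In RNA of a whole organ, fewer cells of a type and less RNA per cell cannot be told apart.

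Where a gene has several probe sets (groups of short probes for a transcript), the brightest stood for it. Its signal was called measured when it exceeded the floor, the 40th percentile of all probe sets on that array, at 30.45 units of linear signal in control and 30.65 in PNA. Over the 14116 genes that passed the floor on 1 or both arrays, the median of log2(PNA/control) was -0.007. The 5th and 95th percentiles were -0.376 and 0.424. A gene was called higher or lower from 1.5-fold, the cut-off that the study used for its arrays. The tissue label matched its markers: all 8 granulosa cell markers, all 8 oocyte markers and all 7 theca and luteal markers measured were above the floor, and all 5 markers of oviduct and fat were below it on both arrays. The number of arrays, not a depth, limits the precision.

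Ligands were higher in PNA ovaries more often than lower. Of the 30 ligands, 22 passed the floor on 1 or both arrays, and 8 of these 22 (36.4%) were at least 1.5-fold higher, against 2.49% of all genes above the floor. These were Cxcl5, Cxcl9, Ccl7, Cxcl10, Ccl5, Ccl6, Cxcl14 and Ccl2. A single ligand, Cxcl12, was lower (4.55% of the 22, against 2.16% of all genes), and the other 13 lay between -0.161 and 0.499 on the log2 scale. The median log2 ratio of the 22 was 0.378 and that of all 30 was 0.233. The 4 ligands Cxcl5, Cxcl9, Ccl7 and Cxcl10 were above the floor on the PNA array alone and so entered the count only through the array on which they were higher. Of the 18 ligands above the floor on both arrays, 4 were higher and 1 was lower, where 2.24% and 1.78% of all such genes were higher and lower.

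**Figure D1:**
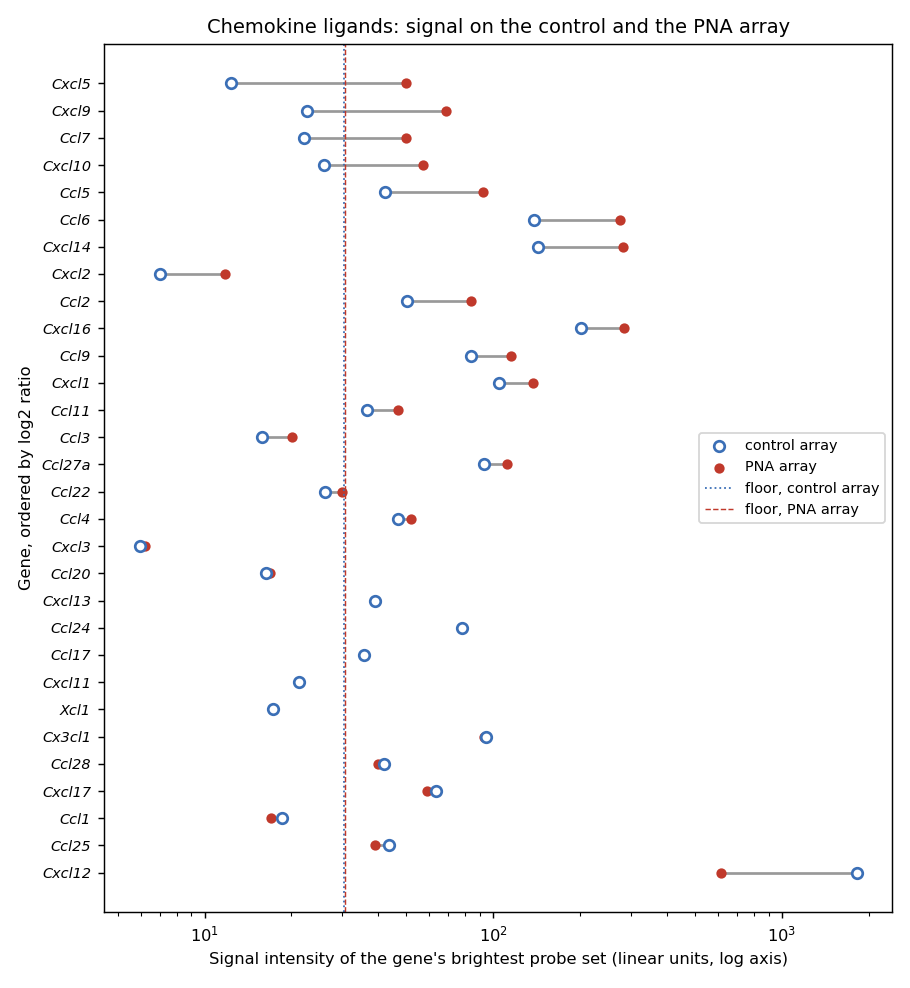
Signal of each of the 30 chemokine ligands on the control array (open circles) and the PNA array (filled circles), in linear units on a log axis, ordered by log2 ratio, with the floor of each array as a vertical line. Points of Cxcl5, Cxcl9, Ccl7 and Cxcl10 cross the floors, Cxcl12 is the ligand whose PNA point lies farthest to the left of its control point, and where both signals are the same only the open circle is seen.

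The 4 higher CC ligands were Ccl2, Ccl5, Ccl6 and Ccl7. Ccl2, the main ligand of Ccr2 on monocytes, read 50.4 in control and 84.0 in PNA, a 1.67-fold difference. Ccl7, which binds Ccr1, Ccr2 and Ccr3, read 22.1 in control, below the floor, and 49.9 in PNA, at least 1.64-fold higher when set against the control floor. For Ccl5 (RANTES), a ligand of Ccr1 and Ccr3 made by T cells and other leukocytes, the signal was 42.2 in control and 92.3 in PNA, or 2.19-fold higher. Among higher ligands above the floor on both arrays, Ccl5 had the largest fold, while for Ccl7 only a bound can be given. Ccl6, a mouse ligand of Ccr1 made by myeloid cells, went from 138.7 to 274.6, a 1.98-fold difference, and its second probe set from 49.0 to 98.0. The probe sets of Ccl6 gave nearly the same log2 ratio, 0.99 and 1.00.

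Other CC ligands had smaller ratios. Ccl9, a further Ccr1 ligand, read 83.8 in control and 115.2 in PNA, a log2 ratio of 0.46, while its second probe set read 42.9 and 70.5, a log2 ratio of 0.72. The gene therefore lay on either side of the threshold depending on the probe set. Ccl11 (eotaxin), which attracts eosinophils through Ccr3, had 36.6 and 47.0, and Ccl4, which attracts macrophages and T cells, had 46.7 and 52.0. The probe set of Ccl27a, a skin homing chemokine, read 92.7 and 111.6, but it aligns outside the gene as annotated in GRCm38.p6, so the reading is uncertain. None of these 3 reached 1.5-fold. Ccl17 and Ccl24 carried the same value on both arrays, 35.7 and 78.0, as did 4.51% of all probe sets, and the sources name no processing step for such values. The epithelial chemokines Ccl25 and Ccl28 had log2 ratios of -0.16 and -0.06. Ccl1, Ccl3, Ccl20 and Ccl22 were below the floor on both arrays, and no fold is given for them.

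The 4 higher CXC ligands were Cxcl5, Cxcl9, Cxcl10 and Cxcl14. Cxcl9 read 22.6 in control, below the floor, and 68.6 in PNA, at least 2.25-fold higher. The second probe set of Cxcl9 was below the floor, with 9.08 on both arrays. Cxcl10 had 25.9 in control, also below the floor, and 57.1 in PNA, at least 1.88-fold higher. Cxcl11, the other ligand of Cxcr3, stayed below the floor with 21.3 on both arrays. Cxcl5, a Cxcr2 ligand made by epithelial and stromal cells, read 12.3 in control and 50.01 in PNA. Its log2 ratio was 2.02, but its bound against the floor was at least 1.64-fold, since the control reading lay below the floor. For Cxcl1, also known as KC and also a Cxcr2 ligand, 3 probe sets were above the floor and differed in size. The brightest went from 105.0 to 138.0 (log2 ratio 0.39), another from 51.3 to 77.6 (0.60) and the third from 37.4 to 106.5 (1.51). All 3 log2 ratios were positive, and 2 of them passed 1.5-fold. The Cxcr2 ligands Cxcl2 and Cxcl3 were below the floor on both arrays, with 7.00 and 11.8 for Cxcl2 and 5.95 and 6.20 for Cxcl3.

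Cxcl14, a chemokine of epithelia with no receptor paired here, had 143 in control and 282 in PNA, 1.97-fold higher, while its second probe set read 111 and 137, a log2 ratio of 0.30. Both log2 ratios were positive, and 1 of them passed the threshold. Cxcl16, a membrane-bound chemokine of macrophages and dendritic cells, read 201 and 285, a log2 ratio of 0.50 that was 0.51 in its other probe set. It was the ligand nearest to the threshold from below. Cxcl13, the B cell attractant, had 39.1 and 39.2, and Cxcl17, a mucosal chemokine, had 63.5 and 59.2. The tethered chemokine Cx3cl1 (fractalkine) read 94.3 and 92.7, and Xcl1, made by T and NK cells, was below the floor on both arrays. The log2 ratios of these were 0.01, -0.10, -0.02 and -0.001.

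Cxcl12 (SDF-1), the stromal ligand of Cxcr4 that retains and guides many cell types, moved against the other called ligands. Its signal of 1818 in control compared with 618 in PNA, 2.94-fold lower (log2 ratio -1.56). A second probe set fell from 1049 to 275 (-1.93). The third was below the floor on both arrays, with 23.9 and 28.4. Both probe sets above the floor were thus lower in PNA, in the opposite direction to the 8 higher ligands. Among the 6152 genes with a geometric mean signal over 256, the range in which Cxcl12 lies, 1.46% were lower by at least 1.5-fold. The higher ligands lay in the lower ranges. In the range under 64, 5 of the 12 ligands (41.7%) were higher, against 3.37% of the 2941 genes in that range, and 3 of the 9 ligands from 64 to 256 (33.3%), against 3.23% of 5023 genes. Of the 5 in the range under 64, 4 passed the floor on the PNA array alone, and of the 8 ligands there above the floor on both arrays 1 was higher. With 50 units added to both signals, which shrinks the ratios of dim genes, 5 ligands stayed at least 1.5-fold higher (Cxcl5, Cxcl9, Ccl5, Ccl6 and Cxcl14) and Cxcl12 stayed lower, against 1.12% and 1.14% of all genes.

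**Figure D2:**
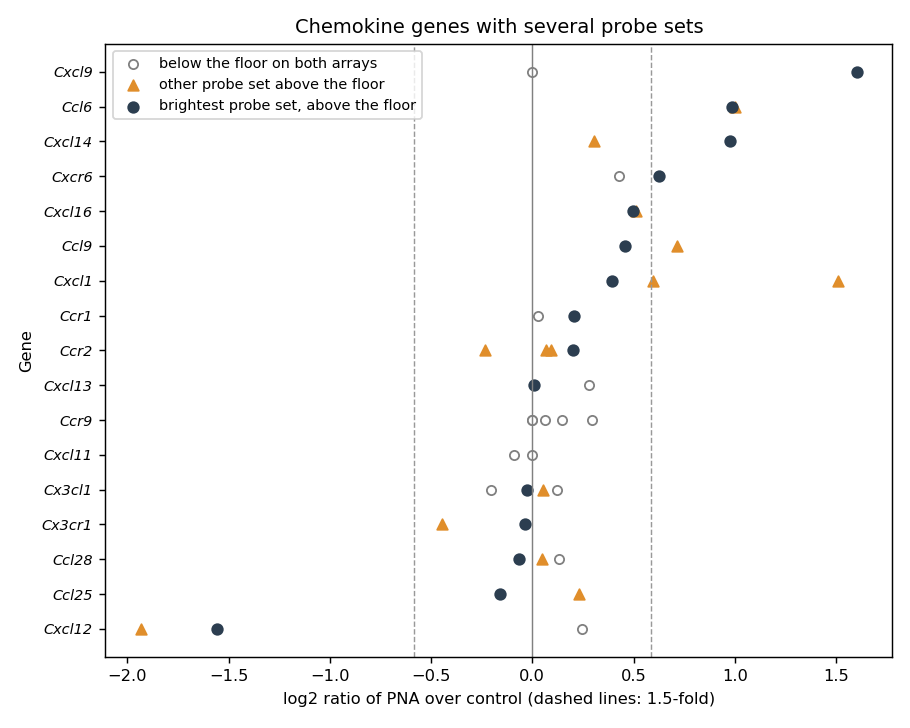
Log2 ratio of PNA over control for each probe set of the chemokine genes with several probe sets, where filled circles mark the brightest, triangles the others above the floor and open circles those below it on both arrays. The probe sets of Ccl6 and Cxcl16 nearly coincide, those of Cxcl1 spread from 0.39 to 1.51, and both of Cxcl12 above the floor lie at -1.56 and -1.93.

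Of the 79 member probe sets, 48 passed the floor on 1 or both arrays, of which 13 were higher and 2 were lower, against 2.34% and 2.3% of all such probe sets. Among the 13, those of Cxcl5, Cxcl9, Ccl7 and Cxcl10 passed the floor on the PNA array alone. Ccl6 and Cxcl1 each gave 2 of the 13, so this count is not separate from the count of genes. In 7 of the 11 genes with at least 2 probe sets above the floor, all their log2 ratios had the same sign. Across 6260 genes of the array with at least 2 such probe sets, the median SD between the log2 ratios of a gene's probe sets was 0.0929, which describes probe sets on the same arrays and is not an error between animals.

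Promoter sequences are shown for Cxcl9 and Cxcl10, the pair induced by interferon, for Cxcl1 and Cxcl14, whose probe sets differed in size, and for Cxcl12, the lower ligand. RefSeq promoters of build GRCm38.p6 matched 36 of the 50 members, some with several start sites, which gave 42 promoters. The letters run 5′ to 3′ on the strand of the gene, over the 250 bases before the annotated start, and capitals mark matches to 3 motifs searched on both strands. These were the interferon-stimulated response element (GAAA, any 2 bases, GAAA), the gamma-activated site of the interferon-gamma response (TTC, any 3 bases, GAA) and the site of NF-kB (GGGA, any 2 bases, TTCC).
Cxcl9, chr5:92328080-92328329, minus strand: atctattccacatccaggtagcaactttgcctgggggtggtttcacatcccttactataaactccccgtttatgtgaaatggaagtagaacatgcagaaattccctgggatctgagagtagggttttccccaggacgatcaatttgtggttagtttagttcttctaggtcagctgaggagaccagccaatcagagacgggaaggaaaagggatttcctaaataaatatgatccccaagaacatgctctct
Cxcl10, chr5:92348890-92349139, minus strand: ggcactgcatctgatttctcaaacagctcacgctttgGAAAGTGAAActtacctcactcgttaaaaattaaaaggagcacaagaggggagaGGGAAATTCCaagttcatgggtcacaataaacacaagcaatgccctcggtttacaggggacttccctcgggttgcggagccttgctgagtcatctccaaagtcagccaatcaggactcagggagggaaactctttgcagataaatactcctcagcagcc
Cxcl1, chr5:90890995-90891244, plus strand: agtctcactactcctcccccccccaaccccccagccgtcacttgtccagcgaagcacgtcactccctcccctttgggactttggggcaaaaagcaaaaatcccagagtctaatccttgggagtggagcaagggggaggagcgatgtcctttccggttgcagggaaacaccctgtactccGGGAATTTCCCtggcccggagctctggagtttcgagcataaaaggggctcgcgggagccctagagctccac
Cxcl14, chr13:56296552-56296801, minus strand: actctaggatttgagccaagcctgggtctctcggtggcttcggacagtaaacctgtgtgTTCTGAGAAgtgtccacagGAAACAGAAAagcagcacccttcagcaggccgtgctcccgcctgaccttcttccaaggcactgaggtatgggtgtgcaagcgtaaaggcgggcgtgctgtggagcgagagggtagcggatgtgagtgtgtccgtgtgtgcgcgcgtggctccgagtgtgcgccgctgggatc
Cxcl12, chr6:117168285-117168534, plus strand: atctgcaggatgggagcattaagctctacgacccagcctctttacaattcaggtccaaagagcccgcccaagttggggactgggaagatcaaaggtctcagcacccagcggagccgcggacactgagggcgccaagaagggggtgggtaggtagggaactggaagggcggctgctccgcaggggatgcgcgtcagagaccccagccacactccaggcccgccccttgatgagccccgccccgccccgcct

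The interferon-stimulated response element letters were found in 2 of the 42 member promoters, those of Cxcl10 (bases -213 to -204) and Cxcl14 (-172 to -163), and in 2.98% of 32851 mouse promoters. The gamma-activated site letters were in 4 of 42, of Ccl17, Ccr1l1, Cxcl14 (-191 to -183) and Ccr6, and in 7.02% of all promoters. The NF-kB letters were in 6 of 42, of Cxcl1, Cxcl2, Cxcl3, Cxcl10 (-159 to -150), Ccl1 and Ccr3, and in 1.21% of all promoters. In Cxcl1, Cxcl2, Cxcl3 and Ccl1 the NF-kB letters match on both strands, shifted by 1 base, so the capitals in the Cxcl1 line cover 2 overlapping matches. The windows of Cxcl9 and Cxcl12 hold none of the 3 letter patterns. The search used a fixed pattern for each site, so other forms of these sites were neither counted nor put in capitals. A match describes the sequence only, and of the 3 Cxcr2 ligands with the NF-kB letters, only Cxcl1 was above the floor.

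Several higher ligands are neighbours in the genome. In the alignments deposited with the array, Cxcl9, Cxcl10 and Cxcl11 lie within bases 92322852 to 92363277 of chromosome 5, and 2 of these 3 were higher. Cxcl5, Cxcl3, Cxcl1 and Cxcl2 lie within bases 90759377 to 90905938 of the same chromosome, where Cxcl5 was higher. On chromosome 11, Ccl2, Ccl7, Ccl11 and Ccl1 lie within bases 82035583 to 82179812, with 2 higher of the 3 above the floor. Further along, Ccl5, Ccl9, Ccl6, Ccl3 and Ccl4 lie within bases 83525778 to 83664680, with 2 higher of the 4 above the floor. These 4 clusters were chosen because each holds a higher ligand, so their share of higher ligands is not a separate result. They hold 16 of the 30 ligands, 11 of the 22 above the floor and 7 of the 8 higher ones, of which 4 passed the floor on the PNA array alone. A further ligand cluster, Ccl22, Cx3cl1 and Ccl17 on chromosome 8, had 0 higher of the 2 above the floor. The deposited table names no build for these positions, and 97.5% of its 34754 alignments with a reference gene overlapped that gene in GRCm38.p6.

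Receptor ratios were mostly small. Of the 20 receptors, 12 passed the floor on 1 or both arrays, 1 of which (8.33%), Cxcr6, was higher and 0 were lower, against 2.49% and 2.16% of all genes. The other 11 lay between -0.445 and 0.315 on the log2 scale, and the median of the 12 was 0.116. Cxcr6, the receptor of Cxcl16 on T cells and NK cells, read 40.2 in control and 62.0 in PNA, a 1.54-fold difference that lay just past the threshold. Its second probe set was below the floor on both arrays. After 50 units were added to both signals, Cxcr6 had a log2 ratio of 0.31 and 0 receptors passed 1.5-fold.

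**Figure D3:**
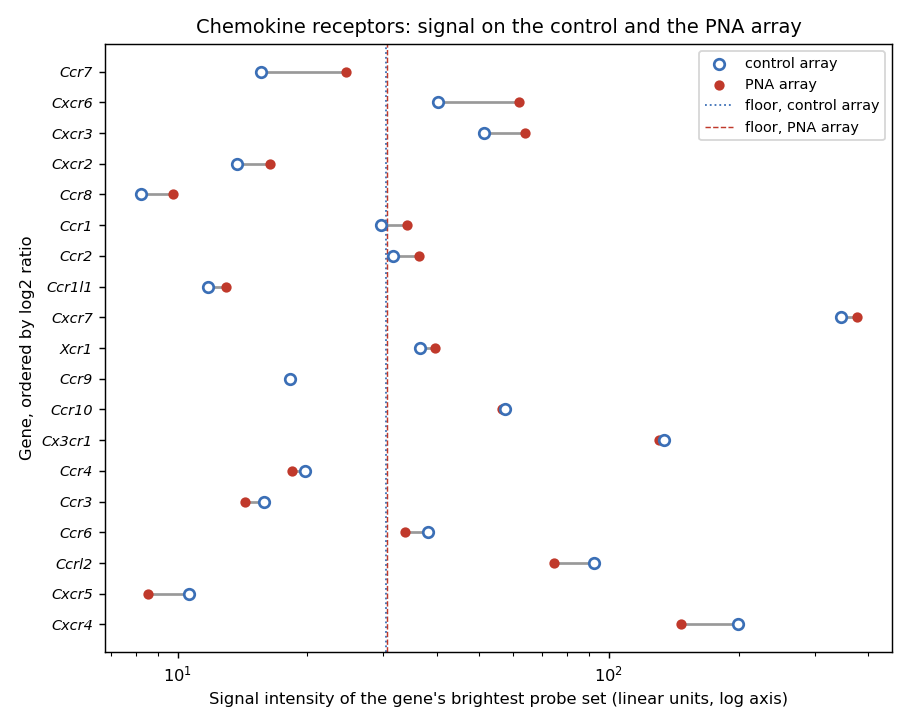
Signal of 19 of the 20 chemokine receptors on the control array (open circles) and the PNA array (filled circles), in linear units on a log axis, ordered by log2 ratio, with the floor of each array as a vertical line. Most pairs of points nearly touch, Cxcr6 is the receptor above the floor with the widest gap to the right, and Cxcr4 has the widest gap to the left.

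The receptors of the higher ligands showed small ratios. Cxcr3, which binds Cxcl9 and Cxcl10, read 51.5 in control and 64.04 in PNA (log2 ratio 0.31). Ccr2, the monocyte receptor of Ccl2 and Ccl7, read 31.6 and 36.3, and 3 probe sets on the gene ranged from 0.07 to 0.20, while the fourth, which aligns outside it, had -0.23. Ccr1, which binds Ccl5, Ccl6, Ccl7 and Ccl9, read 29.6 and 34.1, near the floor on both arrays. Cxcr2, the neutrophil receptor of Cxcl1 and Cxcl5, was below the floor on both arrays, with 13.8 and 16.4, as was Ccr3, the eosinophil receptor, with 15.9 and 14.4. The log2 ratios of Cxcr3, Ccr2 and Ccr1 lay between 0.20 and 0.31, and none reached 1.5-fold.

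Both receptors of Cxcl12 were above the floor on both arrays. Cxcr4 read 199.7 in control and 146.7 in PNA, a log2 ratio of -0.45 (1.36-fold lower), the lowest of the receptors above the floor. Cxcr7, the scavenging receptor now named Ackr3, read 346 and 376 (0.12). Cxcr4 therefore lay in the direction of its ligand without passing the threshold, and Cxcr7 did not. Of the remaining receptors above the floor, Ccrl2, an atypical receptor that presents chemerin, read 92.2 and 74.6 (-0.30), and Cx3cr1, the fractalkine receptor of monocytes, read 134 and 131 (-0.04), with -0.45 in a second probe set that passed the floor only in control. Ccr6 read 38.0 and 33.8, Ccr10 read 57.6 and 56.6, and Xcr1, the receptor of Xcl1 on cross-presenting dendritic cells, read 36.5 and 39.5. Ccr4, Ccr7, Ccr8, Ccr9, Ccr1l1 and Cxcr5 were below the floor on both arrays. Ccr7, the lymph node homing receptor, had the largest ratio among these, 15.6 and 24.6, and no fold is given for it. The probe set that stands for Ccr9 aligns away from its gene, on chromosome 15, so it gives no reading of Ccr9, and the other 4 probe sets of that gene were below the floor too.

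When ligands were set beside their receptors in 31 textbook pairs, ligand and receptor were not called together in any pair. In 13 pairs both partners were above the floor. A higher ligand occurred in 10 pairs, in 7 of which the receptor was above the floor, and the receptor was higher in 0 of the 10. Of all genes above the floor 2.49% were higher, and only 1 of the 12 receptors above it was. With so few receptors called, the lack of joint calls gives no result about pairing. In the pair Cxcl16 and Cxcr6 the receptor passed 1.5-fold and the ligand, at 0.50, did not. The pairs share members, since Ccr1 and Ccr3 each receive several ligands, so they do not count as separate observations.

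**Figure D4:**
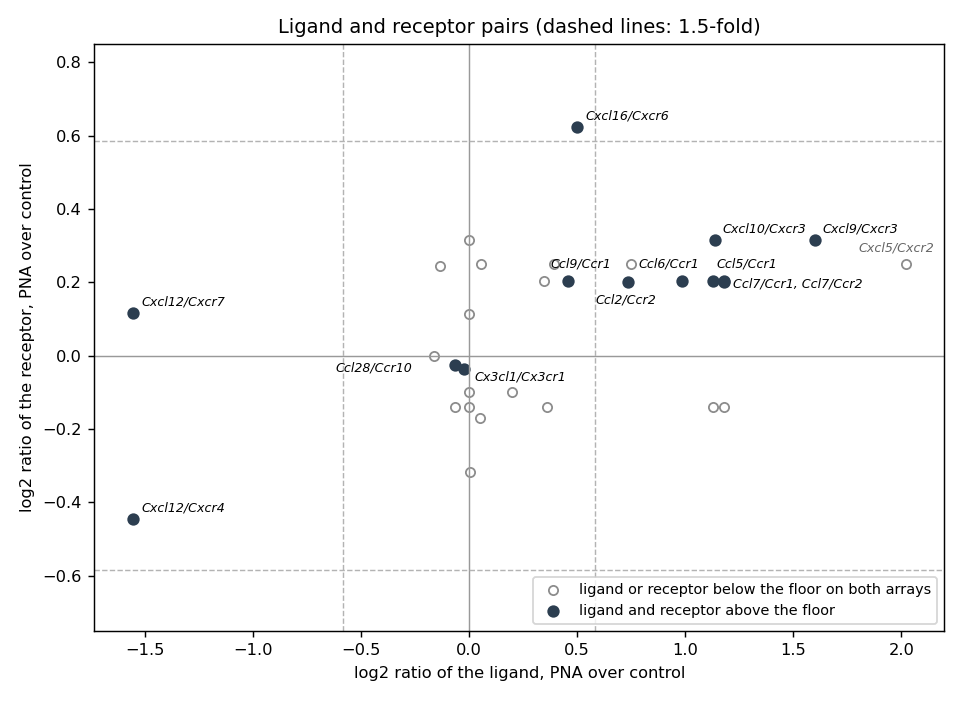
Log2 ratio of each ligand (x axis) against that of its receptor (y axis), PNA over control, for the 31 pairs, with dashed lines at 1.5-fold. Pairs with a higher ligand lie right of the vertical dashed line but below the horizontal one, and Cxcl16 with Cxcr6 is the pair above it.

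Genes that act around the chemokines were then counted in lists, against 2.49% higher and 2.16% lower among all genes above the floor and a median log2 ratio of -0.007. Among genes that induce chemokines, 2 of the 21 above the floor were higher and 0 lower, among them Nfkbiz, a nuclear co-activator of NF-kB (139 in control and 213 in PNA). Ifng itself was below the floor on both arrays. Of 20 interferon-stimulated genes above the floor, 15 were higher and 0 lower, with a median log2 ratio of 0.86. Ifit1 read 39.1 and 188.1, Usp18 63.2 and 209.4, Ifi44 38.6 and 118.5, and Oasl2 130.4 and 364.3. Cxcl9 and Cxcl10 were not in this list.

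Leukocyte adhesion molecules showed 3 higher and 0 lower of 18 above the floor. Icam1, the endothelial ligand of leukocyte integrins, read 102.9 and 185.3, and the integrin chains that bind it, Itgal and Itgb2, read 50.8 and 83.8, and 107.9 and 170.1. Among genes that cleave or retain chemokines, 1 of 18 was higher and 1 lower. Tnfaip6, which binds chemokines and hyaluronan and belongs to the expanding cumulus, read 27.3 in control, below the floor, and 65.0 in PNA, at least 2.14-fold higher. Mmp12, the macrophage elastase that trims chemokines, read 98.5 and 65.0 (log2 ratio -0.60). Of 33 genes that transmit receptor signals, such as G protein subunits and arrestins, 0 were higher and 0 lower, with a median log2 ratio of 0.02. The signal transduction list thus lay close to the median of all genes. Chemokine family genes listed under other symbols, such as Pf4 and Cd74, had 0 called of 9 above the floor.

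**Figure D5:**
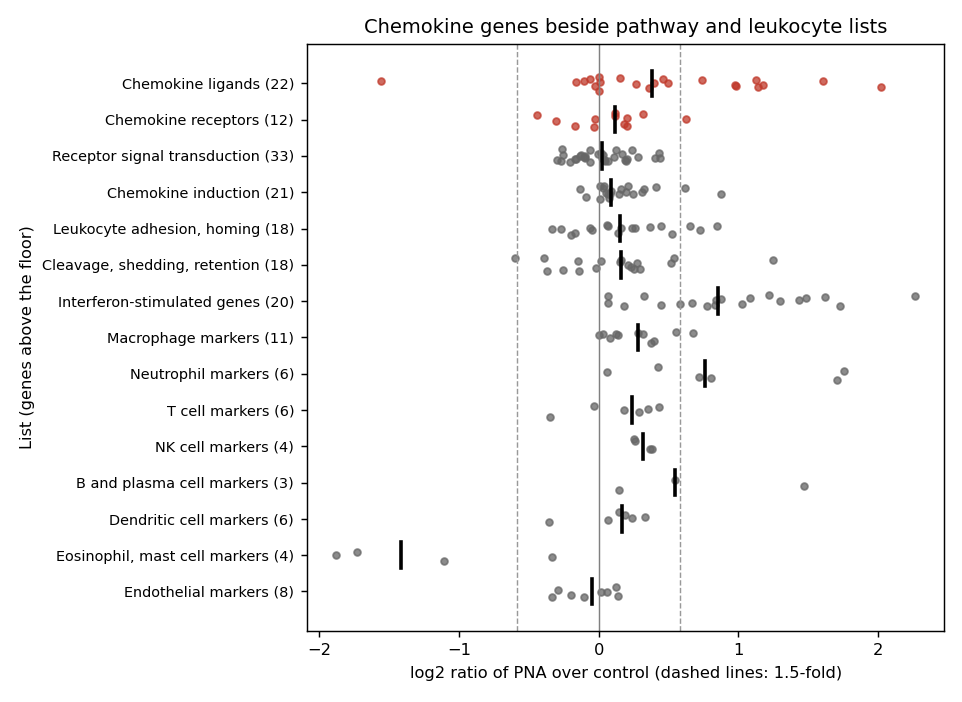
Log2 ratio of PNA over control for the genes of each list that lie above the floor, with the median of each list and lines at 1.5-fold. Interferon-stimulated genes lie to the right with a median of 0.86, mast cell proteases lie to the left, and the receptor signalling genes cluster at 0.

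Markers of cells that make or follow chemokines differed between the arrays to varying degrees, and their part in the ligand values was not tested. Of all genes above the floor, 2.49% were higher and 2.16% lower. Of 11 macrophage markers above the floor all 11 were positive and 1 passed 1.5-fold, Cd14 (108.6 and 173.4). The summed signal of the 12 macrophage markers measured was 4716 in control and 5337 in PNA. Of 6 neutrophil markers above the floor 4 were higher, led by the calprotectin subunits S100a9 (46.7 and 158.1) and S100a8 (54.0 and 176.3), while Mpo, Elane, Camp and Mmp8 were below the floor on both arrays. Ngp, among the 4 higher, and Csf3r and Ltf, which were not called, passed the floor on the PNA array alone. These entered the count only through the array on which they were higher. The summed signal of the 10 neutrophil markers was 274.6 in control and 558.3 in PNA, of which the calprotectin subunits made 100.7 and 334.4 and the other 8 markers 173.8 and 223.8. Most of the difference in the neutrophil sum lay in the calprotectin subunits.

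Many lymphocyte markers were below the floor. Of 6 T cell markers above it 0 were called, with a sum over 12 markers of 600.7 and 696.1, and Cd3g, Cd247, Cd8b1, Cd2, Cd5 and Trat1 were below it on both arrays. Of 4 NK cell markers above it 0 were called, with a sum over 9 of 219.2 and 254.2, and Ncr1 and Klrb1c were below the floor. In the list of B cells and plasma cells, 1 of 3 markers above the floor was higher, against 2.49% of all genes. This was Igj, the joining chain of secreted antibody, which read 115.3 and 319.4. Cd22 (58.8 and 85.97) and Mzb1 (34.45 and 38.15) were not called, and Ms4a1, Cd79a, Cd79b and Pax5 were below the floor on both arrays. The sum of the 9 was 327.9 and 572.1, and most of that difference lay in Igj. For 6 dendritic cell markers above the floor 0 were called, with a sum over 7 of 518.1 and 570.8.

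In the list of eosinophil and mast cell markers, the called genes moved the other way. Of 4 above the floor 3 were lower, all of them mast cell proteases: Cma1 read 104.8 in control and 28.4 in PNA, below the floor (at least 3.42-fold lower), Cpa3 read 132.5 and 40.04 (log2 ratio -1.73), and Mcpt4 read 60.3 and 28.0 (at least 1.97-fold lower). Cma1 and Mcpt4, and Tpsb2 that was not called, passed the floor on the control array alone. They so entered the count only through the array on which they were higher, and Cpa3 was above the floor on both arrays. The sum of the 10 markers was 387.8 in control and 175.9 in PNA. The eosinophil markers Epx, Prg2 and Il5ra were below the floor on both arrays, as were the mast cell markers Fcer1a and Ms4a2. Of 8 endothelial markers 0 were called in either direction, with a sum of 1675 in control and 1650 in PNA. Of 8 stromal and smooth muscle markers 0 were called, with a sum of 13500 and 14990. Within that list the log2 ratios were positive for Pdgfra (0.47), Dcn (0.48), Col1a1 (0.55) and Lum (0.19). They were negative for Pdgfrb (-0.09), Acta2 (-0.17), Myh11 (-0.41) and Cnn1 (-0.36), and none of the 8 reached 1.5-fold.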

How the data were processed

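Ovarian RNA was hybridised to the Affymetrix Mouse Genome 430 2.0 array, with 1 array for each group. For each of 45101 probe sets, the authors deposited an intensity on a linear scale. They also deposited a log2 value, centred over both arrays. Ratios from the intensity and log2 tables differed by at most 2.0e-06. Any normalization between the arrays in the log2 values is therefore in the intensities too. The sources used here name no software for it. The median signal was 48.7 in control and 49.5 in PNA. The labels mention Bouin's fixative as well as Trizol extraction. The study's own tables of fold changes and differential genes were not used, and 0 columns of other samples were present. After 64 control probe sets were left out, PNA over control ratios were taken in Python 3.11.15 (pandas 2.3.3, numpy 2.4.6). The brightest probe set with a single symbol stood for each gene.

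No test could be made, as neither group has a replicate. Where a gene was below the floor on 1 array, its fold is a bound against the floor of that array. Counts of lists are set against the shares of all genes above the floor. Every member may be named, and members past 1.5-fold and both partners of their pairs are given in full. From each other list, up to 4 genes are named by size of change, from 1.5-fold on. Some markers that lay below the floor on 1 or both arrays, and the 8 stromal and smooth muscle markers, are named as well. Members, pairs and lists were chosen with earlier results of these data known. As alternatives, the arrays were scaled by their medians, by quantiles or by loess (statsmodels 0.14.6, fraction 0.3), 50 was added to the signals, and the floor, the rule for probe sets and the threshold (2-fold) were changed. The values of 1 receptor and of a few list genes are not reported here, though they stay in the counts of receptors and lists. The calling step was tested on simulated data.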

Additional observations from a re-analysis of the deposited data

Results flagged for a closer look

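Among rows and probe sets that stood for no gene in the counts of genes, 6 lay above the floor and past 1.5-fold. A probe set annotated to Ccl12, a mouse relative of Ccl2, together with another symbol, which kept it out of the members, read 39.7 in control and 68.4 in PNA, a log2 ratio of 0.79. The second probe set of Ccl9 had a log2 ratio of 0.72 where the brightest had 0.46. For Cxcl1, the probe sets not standing for the gene had log2 ratios of 1.51 and 0.60, where the brightest had 0.39. The second probe sets of Ccl6 (log2 ratio 1.00) and Cxcl12 (-1.93) ran the same way as the brightest of each gene. Of the 6, 5 were higher in PNA and 1, of Cxcl12, was lower, and there is no replicate array for any of them.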

How the results depend on the processing

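With 1 array per group, a difference between these arrays cannot be told apart from a difference between any 2 sets of ovaries, and leaving out a replicate was not possible. No paired analysis was possible because each group has 1 array. The count of higher ligands was 8 and became 5 with 50 added to both signals, 4 with the floor required on both arrays, 3 with a floor at the 60th percentile and 5 at 2-fold. The median log2 ratio of ligands was 0.378 and became 0.229 with 50 added, 0.233 with no floor, 0.211 with the floor on both arrays, 0.233 with a floor at the 20th percentile and 0.715 with the probe set of the largest change. The count of higher receptors was 1 and became 0 with 50 added, with a floor at the 60th percentile, with the mean of all probe sets and at 2-fold, and 2 with no floor and with a floor at the 20th percentile. The median of receptors was 0.116 and turned to -0.17 with a floor at the 60th percentile, which left 4 receptors. In every alternative run, 1 ligand and 0 receptors were lower. Of 212 values of the 21 genes followed, 183 stayed within 0.0929 on the log2 scale (the median SD between probe sets of a gene) and on their side of 1.5-fold, 29 did not, and 0 of the called genes changed direction. With 50 added, Ccl7, Cxcl10, Ccl2 and Cxcr6 fell under 1.5-fold. With the mean of all probe sets, or the probe set of the largest change, Cxcl1 and Ccl9 passed it.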

Other observations

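Among the markers of ovarian cells set beside the chemokine genes, 4 genes of follicle and steroid function passed 1.5-fold. Of all genes above the floor, 2.49% were higher and 2.16% lower. The median log2 ratio was 0.15 for granulosa cell markers, with 5 of 8 positive, and 0.11 for theca and luteal markers, with 4 of 7 positive. Of 8 granulosa cell markers 2 were higher in PNA: Cyp19a1 (aromatase) read 388.5 in control and 1578 in PNA, and Amh, a hormone of growing follicles, read 119.3 and 199.0. Of 7 theca and luteal markers, Cyp17a1, which makes androgens, was higher (2709 and 5448) and Lhcgr, the LH receptor, was lower (1246 and 458.1). Of 8 oocyte markers 0 were called in either direction. Chemokine probe sets annotated to several symbols, and so left out of the members, covered Ccl21a, a lymph node homing ligand of Ccr7, with 2585 in control and 2096 in PNA (log2 ratio -0.30), and Ccl19 and Ccl8, with log2 ratios of 0.06 and 0.02.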
